A study of Mus musculus with 6 samples.

Results

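The immunity-related GTPases (IRG) Irgm1, Irgm2, Igtp, Iigp1, Tgtp1 and Gm4951 were followed in RNA from the mouse brain cortex after microglia depletion. These 6 genes were chosen by symbol from the 23366 genes of the expression table, and each of them has 1 row there. RNA-seq was done on 3 d10 depleted mice, here A4 to A6, and on 3 littermate control mice, here A1 to A3, and each mouse gave 1 library. All of them were of C57BL/6 background, carried 1 copy of CX3CR1-CreERT2 and received tamoxifen. The depleted mice also carried iDTR, a diphtheria toxin receptor that is expressed once Cre has removed a STOP cassette, and their microglia were depleted with diphtheria toxin, with tissue taken at d10, that is 10 days after depletion. The Cre is driven by the CX3CR1 promoter, which is active in microglia and in other CX3CR1-expressing myeloid cells, and the study describes microglia as having returned by d10. The study's methods do not say whether the control mice were given the toxin, and they call the mice age- and sex-matched. The mice were adult, with no exact age given in the sources used here. The comparison asked how IRG expression in the cortex differed between depleted and control mice.

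IRG proteins are large GTPases that cells make in response to interferon-γ and, for many of them, type I interferon. In mouse cells they gather on the membranes of vacuoles that hold parasites or bacteria and take part in breaking those vacuoles open. The family is divided by the first GTP-binding motif of the protein. Members with a GMS motif (Irgm1, Irgm2 and Igtp, also called Irgm3) sit on the cell's own membranes and restrain the others, and members with the common GKS motif (Iigp1, or Irga6, and Tgtp1, a product of the Irgb6 locus) act as effectors that load onto the vacuole. The reading frames of the annotated transcripts placed Irgm1, Irgm2 and Igtp in the GMS class and Iigp1, Tgtp1 and Gm4951 in the GKS class.

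The stretches of promoter around the interferon motifs of Irgm1, Irgm2, Igtp and Tgtp1, and of Tgtp2, the near-identical copy of Tgtp1, show what these genes share upstream of the transcript. The windows, from 250 bases before to 50 bases after the RefSeq start (build GRCm38.p6), were searched on both strands for the core of the interferon-stimulated response element (ISRE), GAAANNGAA, and for the gamma-activated site (GAS), TTCNNNGAA. Capitals mark the matches, which lie in the order GAS and then ISRE core where both are present. Each stretch is written 5′ to 3′ on the gene's strand and ends before the start.
Irgm1, chr11:48871421-48871480, minus strand: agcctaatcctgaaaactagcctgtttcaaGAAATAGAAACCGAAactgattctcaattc
Irgm2, chr11:58214883-58214951, plus strand: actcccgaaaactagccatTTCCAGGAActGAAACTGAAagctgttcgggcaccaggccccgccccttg
Igtp, chr11:58199492-58199555, plus strand: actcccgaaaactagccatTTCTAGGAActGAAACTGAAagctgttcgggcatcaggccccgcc
Tgtp1, chr11:48992285-48992353, minus strand: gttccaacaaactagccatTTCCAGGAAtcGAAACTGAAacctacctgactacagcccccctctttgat
Tgtp2, chr11:49064244-49064312, minus strand: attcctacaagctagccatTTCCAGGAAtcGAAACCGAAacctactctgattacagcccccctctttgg

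The ISRE core was found in 8.56% of the 32851 mouse promoter windows counted, the GAS in 8.3% and both in 1.07%. Windows on chromosome 18, which holds Iigp1 and Gm4951, were left out of the search and the count. Irgm1 had 2 overlapping ISRE cores, which began 30 and 24 bases before the start, and no GAS. Irgm2, Igtp, Tgtp1 and Tgtp2 each had 1 ISRE core and 1 GAS, and in all of these windows the GAS began 11 bases before the ISRE core. This spacing, which was seen in these sequences before it was counted, occurred in 9 of the windows counted (0.0274%), and 5 of the 9 belong to IRG loci, namely Igtp, Irgm2, Tgtp1, Tgtp2 and Gm12185. The windows of Irgm2 and Igtp were 91.1% identical over 271 aligned bases, and those of Tgtp1 and Tgtp2 were 91.4% identical over 162, so these matches are not independent of each other. The window of the related gene Ifi47 held neither motif. A match describes the letters only, and binding was not measured.

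**Figure D1:**
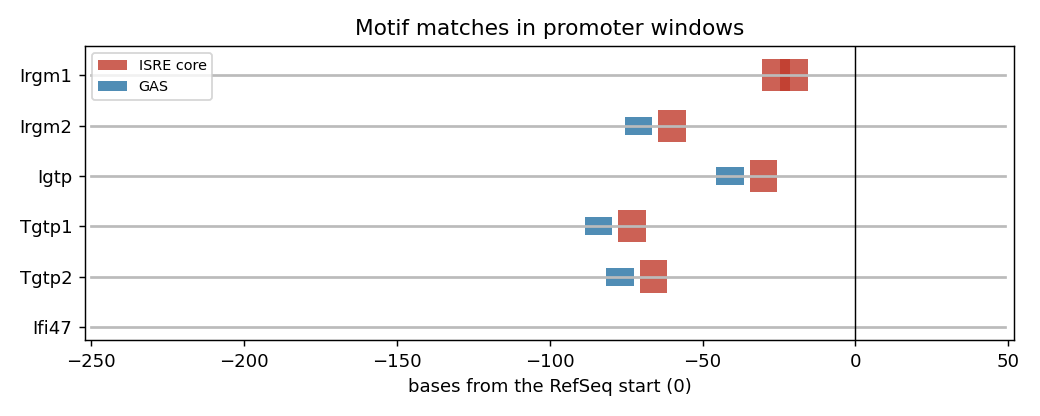
Matches to the ISRE core (tall red boxes) and the GAS (short blue boxes) in the promoter windows of 6 IRG genes, with the distance from the RefSeq start in bases on the horizontal axis. The GAS began 11 bases before the ISRE core in Irgm2, Igtp, Tgtp1 and Tgtp2, Irgm1 had 2 overlapping ISRE cores, and Ifi47 had no match.

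Expression is given as FPKM, fragments per kilobase of transcript per M mapped fragments, which the authors scaled between libraries. The values rest on about 13.7 to 20.6 M fragments in A1, A2, A3 and A4, 11.2 M in A6 and 7.15 M in A5, as estimated from the spacing of low values. A gene was tested where its mean over the 6 mice was at least 0.5 FPKM, which left 14385 genes, and differences are on the log2(FPKM + 1) scale, which understates those of low genes. Mouse A4 stood apart: it had the highest FPKM of each of the 6 IRG genes and the lowest limma array weight (0.304, against 0.685 to 2.44 in the other mice). A4 was also the mouse in which Y-linked genes were clearly read (Eif2s3y 3.47 FPKM), yet its Xist was 30.9 FPKM. Xist was 4.74 FPKM in control mouse A3 and 30.9 to 46.7 FPKM in the others. In A3 the Y-linked genes Ddx3y, Eif2s3y, Kdm5d and Uty were at 0, so low Xist did not go with Y-linked reads. The methods describe sex-matched mice, and the sex of these mice was not tested. Results are therefore given with A4 and without it. The p-values measure the spread between these mice, and the smallest p that an exact permutation test allows with 3 mice a group is 0.1.

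All 6 IRG genes were higher in every depleted mouse than in every control mouse, and none of them passed the adjusted threshold of 0.1 in limma. The background for the first statement is 8.21%, the share of the 14385 genes tested whose 3 depleted values all lay above the 3 control values. At an unadjusted p under 0.05 in limma, 5 of the 6 IRG genes (all but Irgm2) were higher in depleted mice, where 4.79% of all genes were. At an adjusted p under 0.1, 4 of all genes tested (0.0278%) were called, and 0 of these were IRG genes. The study, which used DESeq on raw counts at the same threshold, reported many more such genes, so this count belongs to the test used here. The median log2 fold change was 1.06 for the 6 IRG genes and -0.0085 for all genes tested. Tgtp1 and Gm4951 came into the test only through their levels in depleted mice, since their control means lay under 0.5 FPKM.

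With A4 left out, both remaining depleted mice were above all controls for all 6 IRG genes, which held for 14.5% of all genes. The median log2 fold change of the 6 genes was then 0.62. At an unadjusted p under 0.05, 5 of the 6 were higher, against 5.99% of all genes, and 0 of the 6 were among the 4 genes (0.0278%) with an adjusted p under 0.1. The difference was smaller without A4, and the order of the groups could not change. In bulk RNA, more cells that express a gene and more RNA per cell cannot be told apart.

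**Figure D2:**
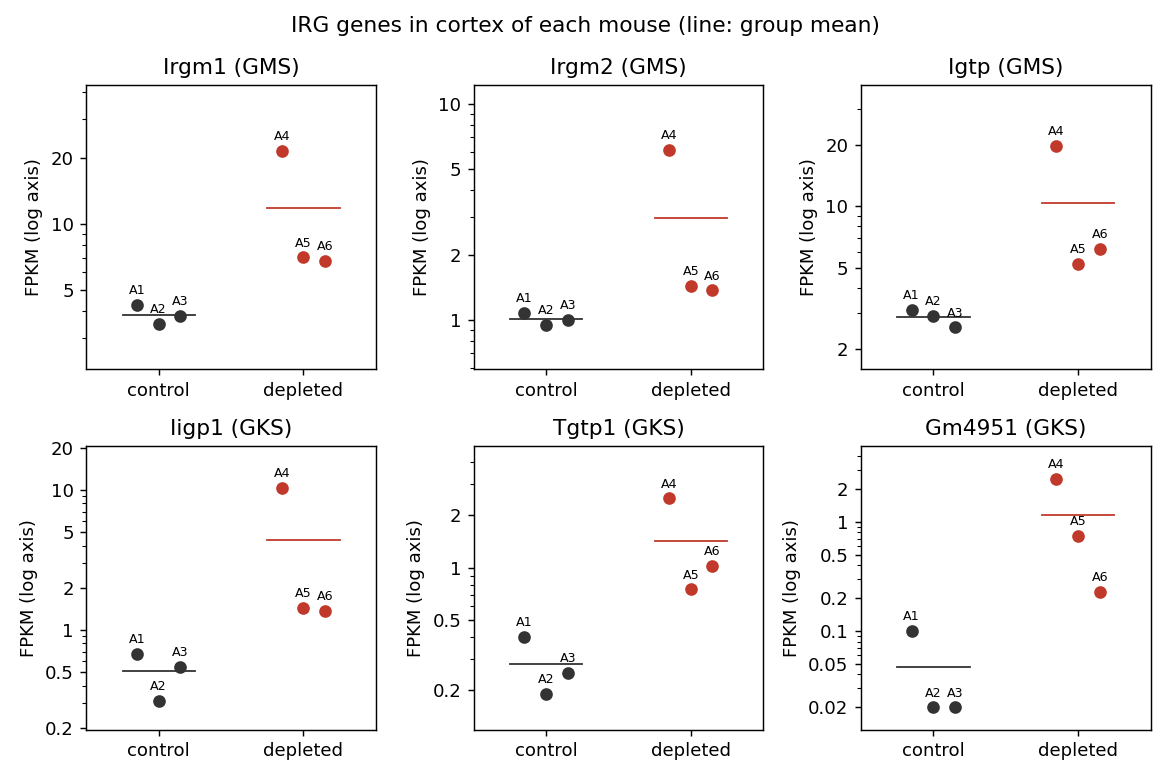
FPKM (log axis) of the 6 IRG genes in each control mouse (black, A1 to A3) and each depleted mouse (red, A4 to A6), with a line at the group mean and 1 panel per gene. The lowest depleted mouse lies above the highest control mouse in all 6 panels, and A4 is the highest mouse in each.

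Among the GMS regulators, Irgm1, which regulates autophagy and is needed for resistance to intracellular bacteria, had the highest level. Irgm1 was 4.28, 3.48 and 3.79 FPKM in control mice A1 to A3 and 21.6, 7.02 and 6.80 FPKM in depleted mice A4 to A6. The control values lay close together, A5 and A6 were almost equal, and A4 was far above both. Its mean was 3.85 ± 0.403 FPKM in control and 11.8 ± 8.45 FPKM in depleted mice (SD, n = 3 each). The log2 fold change was 1.21 (SE 0.36, adjusted p = 0.378 in limma). Without A4 it was 0.71 (SE 0.12, adjusted p = 0.124).

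Igtp, which sits on the endoplasmic reticulum and lipid droplets, was next in level. Igtp was 3.11, 2.89 and 2.55 FPKM in control mice A1 to A3 and 19.8, 5.21 and 6.20 FPKM in depleted mice A4 to A6. The groups were apart, with A5 and A6 at 1.83 and 2.18 times the control mean and A4 at 6.93 times. The mean was 2.85 ± 0.282 FPKM in control and 10.4 ± 8.12 FPKM in depleted mice (SD, n = 3 each). Its log2 fold change was 1.34 (SE 0.39, adjusted p = 0.378 in limma) and 0.80 without A4 (SE 0.13, adjusted p = 0.124).

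Irgm2, a Golgi-associated regulator, had the smallest log2 fold change of the 6. Irgm2 was 1.08, 0.95 and 1.00 FPKM in control mice A1 to A3 and 6.13, 1.44 and 1.37 FPKM in depleted mice A4 to A6. A5 and A6 were above the control mean by factors of 1.43 and 1.36, while A4 was 6.07 times the control mean. The mean was 1.01 ± 0.0656 FPKM in control and 2.98 ± 2.73 FPKM in depleted mice (SD, n = 3 each). The log2 fold change was 0.78 (SE 0.38, adjusted p = 0.514 in limma) and 0.26 without A4 (SE 0.14, adjusted p = 0.486). In GENCODE M21, Igtp and Irgm2 overlap on the plus strand of chromosome 11 (GRCm38, 58199556 to 58207591 and 58199618 to 58222782). There 7.8% of the 75-base windows of Igtp transcripts also occur in Irgm2, so under these models some reads could be assigned to either gene. The RefSeq start used for the Irgm2 promoter lies beyond the end of Igtp (its stretch begins at 58214883) and gives no such overlap. Irgm1 lies on the minus strand of the same chromosome at 48861968 to 48871683 and shared no window with another gene.

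Of the GKS effectors, Iigp1, the best studied of the proteins that load onto vacuoles, had the highest level. Iigp1 was 0.67, 0.31 and 0.54 FPKM in control mice A1 to A3 and 10.3, 1.43 and 1.36 FPKM in depleted mice A4 to A6. The control mice were spread over a wide range for such a low gene, and A5 and A6 were still at 2.82 and 2.68 times their mean. A4 was at 20.4 times the control mean. The mean was 0.507 ± 0.182 FPKM in control and 4.37 ± 5.16 FPKM in depleted mice (SD, n = 3 each). The log2 fold change was 1.42 (SE 0.54, adjusted p = 0.432 in limma), the largest of the 6 on this scale. Without A4 it was 0.68 (SE 0.17, adjusted p = 0.230), below Igtp and Irgm1.

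Tgtp1, a GTPase first found in T cells, was 0.40, 0.19 and 0.25 FPKM in control mice A1 to A3 and 2.48, 0.75 and 1.02 FPKM in depleted mice A4 to A6. A5 and A6 were at 2.68 and 3.64 times the control mean, and A4 at 8.86 times. The mean was 0.280 ± 0.108 FPKM in control and 1.42 ± 0.931 FPKM in depleted mice (SD, n = 3 each), with a log2 fold change of 0.85 (SE 0.26, adjusted p = 0.378 in limma) and of 0.56 without A4 (SE 0.17, adjusted p = 0.283). Tgtp1 (chromosome 11, 48985327 to 48994172, minus strand) shared 74.6% of its 75-base windows with Tgtp2, which lies 63.0 kb away, so the split of reads between these rows is uncertain. Tgtp1 also overlaps Gm12185 on its own strand and Olfr56 on the other. The sum of both rows avoids that split, and it was 0.99, 0.80 and 0.96 FPKM in control mice A1 to A3 and 4.61, 1.49 and 2.54 FPKM in depleted mice A4 to A6. The groups did not overlap in the sum either (exact permutation test, two-sided, p = 0.1), and its log2 fold change was 0.94, or 0.63 without A4.

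Gm4951, a little-studied neighbour of Iigp1, was the least expressed. Gm4951 was 0.10, 0.02 and 0.02 FPKM in control mice A1 to A3 and 2.49, 0.74 and 0.23 FPKM in depleted mice A4 to A6. At the estimated depths these values come to about 4, 1 and 1 fragments in the control mice and about 90, 14 and 7 fragments in the depleted mice. The depleted mice were above the controls in each case, and the control level is too low to give a ratio. The mean was 0.0467 ± 0.0462 FPKM in control and 1.15 ± 1.19 FPKM in depleted mice (SD, n = 3 each). The log2 fold change was 0.90 (SE 0.34, adjusted p = 0.432 in limma) and 0.48 without A4 (SE 0.20, adjusted p = 0.374). Gm4951 overlaps the gene model Gm5970 on the same strand. Gm4951 (60212080 to 60247820) and Iigp1 (60376027 to 60392634) lie 128.2 kb apart on the plus strand of chromosome 18, and neither shared a 75-base window with another gene.

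In level per length, the order was Irgm1, Igtp, Irgm2, Iigp1, Tgtp1 and Gm4951 in each mouse except A4, where Iigp1 was above Irgm2 and Gm4951 was level with Tgtp1. Irgm2 and Iigp1 were almost equal in A5 and A6, as were Tgtp1 and Gm4951 in A5, so their order there is not firm. In the control mice the ranges of Irgm1 and Igtp were apart, as were those of Igtp and Irgm2, of Irgm2 and Iigp1, and of Tgtp1 and Gm4951. Those of Iigp1 and Tgtp1 overlapped, and in the depleted mice the ranges of all neighbours overlapped. The sum of the 6 genes was 9.64, 7.84 and 8.15 FPKM in control mice A1 to A3 and 62.7, 16.6 and 17.0 FPKM in depleted mice A4 to A6. Irgm1 and Igtp together made up 76.7 to 81.3% of that sum in the control mice, 73.7% in A5, 76.6% in A6 and 65.8% in A4. The share of Iigp1 was 3.95 to 6.95% in the control mice, 8.62% in A5, 8.01% in A6 and 16.5% in A4, so Iigp1 took a larger part of the summed FPKM of these 6 genes in each depleted mouse than in any control mouse.

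Whether the effectors and the regulators differed in the size of their change depended on the scale. As ratios to the control mean, Iigp1 and Tgtp1 were above the 3 GMS genes in each depleted mouse, and Gm4951 was left out because its control level gives no ratio: in A5 the GMS ratios were 1.43 to 1.83 and those of Iigp1 and Tgtp1 were 2.82 and 2.68, and in A6 they were 1.36 to 2.18 against 2.68 and 3.64. On the log2(FPKM + 1) scale the mean of the GKS genes minus the mean of the GMS genes was -1.41 ± 0.0566 in control and -1.46 ± 0.10 in depleted mice (SD, n = 3 each), so the classes moved by almost equal amounts. With a pseudocount of 0.1, chosen after the data were seen, the same difference was -2.90 ± 0.312 in control and -1.99 ± 0.278 in depleted mice (SD, n = 3 each), and the GKS genes then moved more. The shift between groups was 0.91 on that scale, and 0.72 with Gm4951 left out. The GKS genes are also the lowest in level, where a pseudocount of 1 shrinks ratios most. The Tgtp1 ratios rest on the uncertain split of reads with Tgtp2. Tgtp1 was 40.4, 23.8 and 26.0% of the sum of both rows in control mice A1 to A3 and 53.8, 50.3 and 40.2% in depleted mice A4 to A6. By group means that sum was 3.14 times control, against 3.06 for Irgm1, 2.95 for Irgm2, 3.64 for Igtp and 8.63 for Iigp1. Outside the 6 genes, the GKS row Tgtp2 was at 3.35 times its control mean in A4 and 1.16 times in A5. Both were below each GMS gene of the same mouse, and at 2.39 times in A6 Tgtp2 was above them. The GKS row Ifi47 did not have a raised level in A5 or A6.

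**Figure D3:**
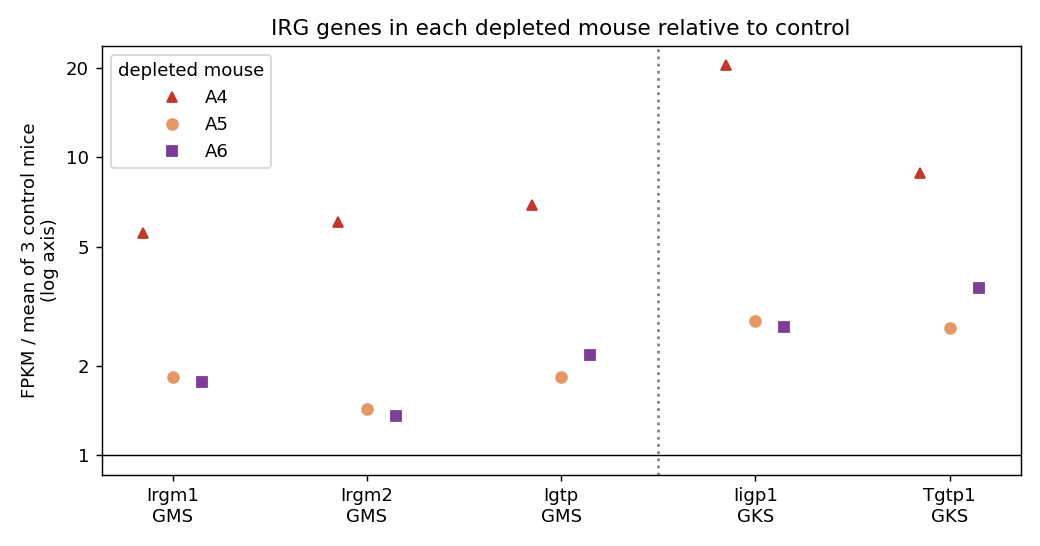
FPKM of Irgm1, Irgm2, Igtp, Iigp1 and Tgtp1 in A4 (triangles), A5 (circles) and A6 (squares) divided by the mean of the 3 control mice, on a log axis, with GMS genes left and GKS genes right of the dotted line. Iigp1 and Tgtp1 lie above each GMS gene of the same mouse, and Gm4951 is not drawn because its control level is too low for a ratio. The split of reads between Tgtp1 and Tgtp2 is uncertain.

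Of 17 symbols listed for the rest of the family, 10 were in the table and 4 passed the level filter. Ifi47 and F830016B08Rik had control means under 0.5 FPKM and passed only through the depleted mice, so the counts and median of this list carry that choice. All 4 had a positive log2 fold change, 1 (Tgtp2) had an unadjusted p under 0.05, and 0 were called. The highest was Ifi47, an effector of the Irgd type, at 0.67, 0.48 and 0.28 FPKM in control mice A1 to A3 and 4.96, 0.48 and 0.15 FPKM in depleted mice A4 to A6. Its raised level was seen in A4 alone: the log2 fold change was 0.56 (SE 0.53, adjusted p = 0.731 in limma) and turned to -0.17 without A4. The lowest was Irgq, a distant relative, at 0.03. The median of the 4 was 0.39, and 0.035 without A4, below the values of 1.06 and 0.62 of the 6 genes. It leaves out the rows under the filter. Among those, Gm12250 was 0.03, 0.04 and 0.04 FPKM in A1 to A3 and 0.88, 0.52 and 0.13 FPKM in A4 to A6. Gm12185 was 0.30, 0.33 and 0.27 FPKM in A1 to A3 and 0.61, 0.48 and 0.67 FPKM in A4 to A6. Both were above all controls in each depleted mouse, as were Tgtp2 and 8.21% of all genes tested. All other rows of the list overlapped between the groups.

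The guanylate-binding proteins (GBP) are the larger GTPases that work beside IRG proteins at the vacuole. Of 11 GBP genes in the table, 6 were tested, 6 had a positive log2 fold change, 4 had an unadjusted p under 0.05 and 0 were called. Their median was 1.14, or 0.57 without A4, close to that of the IRG genes. Gbp6 had the highest value, with 1.09, 0.83 and 0.83 FPKM in control mice A1 to A3 and 11.5, 2.46 and 3.30 FPKM in depleted mice A4 to A6, a log2 fold change of 1.58 (SE 0.41, adjusted p = 0.370 in limma). Without A4 it was 1.01 (SE 0.16, adjusted p = 0.124). Gbp9 had the lowest, at 0.34, or 0.07 without A4. It was 0.61, 0.76 and 0.60 FPKM in control mice A1 to A3 and 2.03, 0.46 and 1.07 FPKM in depleted mice A4 to A6, so A5 was below all controls.

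Ifng, the gene of interferon-γ, the main inducer of the family, is listed at 0 in all 6 mice. Of 11 genes for its receptor and signalling, 7 were tested, with 4 positive and 3 negative log2 fold changes, and 2 had an unadjusted p under 0.05. Among them was the receptor chain Ifngr1, at 0.33 (SE 0.10, adjusted p = 0.378 in limma), and none was called. Irf1, a transcription factor induced by interferon-γ, was the lowest of the list at -0.15, with 2.02, 2.56 and 3.56 FPKM in control mice A1 to A3 and 4.95, 1.45 and 1.47 FPKM in depleted mice A4 to A6. The values of A5 and A6 were below all controls, unlike those of any of the 6 IRG genes, and without A4 the log2 fold change of Irf1 was -0.57 (SE 0.19, adjusted p = 0.297).

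Of 9 genes for the type I interferon receptor and signalling, 8 were tested, 6 had a positive log2 fold change and 4 had an unadjusted p under 0.05, Stat2, Irf9 and Irf7 among them. None was called. Irf7, the factor that amplifies type I interferon, was highest at 2.12 (SE 0.60, adjusted p = 0.378 in limma), with 1.82, 0.64 and 0.74 FPKM in control mice A1 to A3 and 25.8, 4.14 and 3.75 FPKM in depleted mice A4 to A6. Without A4 it was 1.30 (SE 0.24, adjusted p = 0.155). Jak1, the kinase shared with the interferon-γ receptor, was lowest at -0.02. Ifnb1 was listed at 0 in 5 mice and at 0.28 FPKM in A4. The median of the list was 0.41, and 0.24 without A4.

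The autophagy conjugation genes and other partners that place IRG and GBP proteins on vacuoles formed the last list. All 16 were tested, with 10 positive and 6 negative log2 fold changes and a median of 0.061. Trim21, a ubiquitin ligase, was highest at 0.50 and was 0.067 without A4. Atg7, the enzyme that starts the conjugation, was lowest at -0.26 (SE 0.10, adjusted p = 0.451 in limma), and 0 of the 16 were called. At an unadjusted p under 0.05, 1 was higher (Atg3, at 0.22) and 1 was lower (Atg7).

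**Figure D4:**
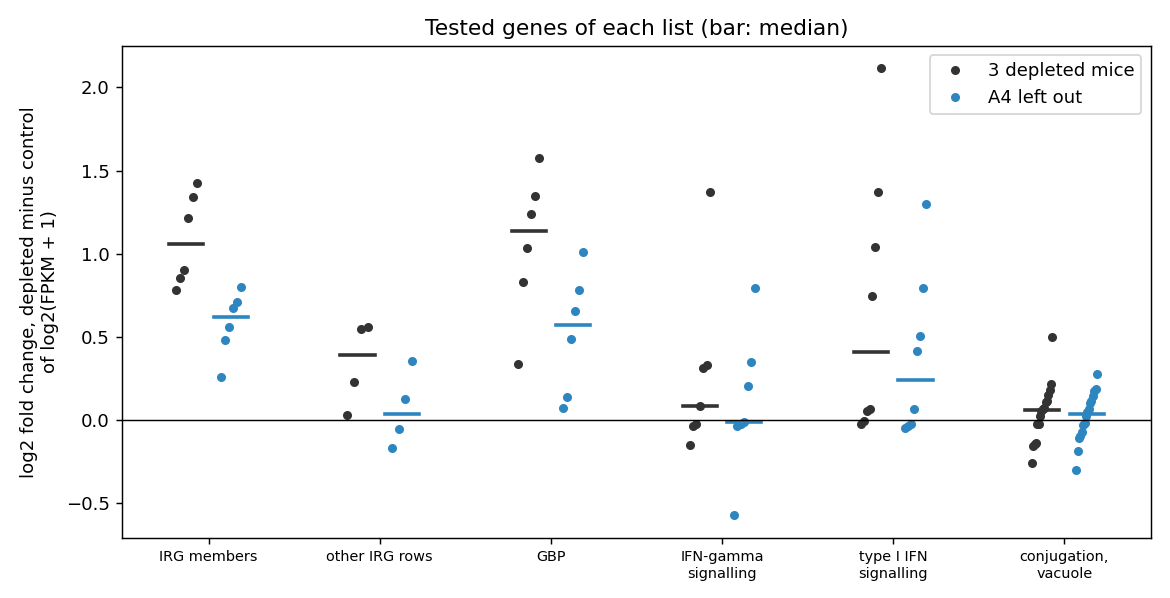
Log2 fold change of each tested gene, depleted minus control on the log2(FPKM + 1) scale, in the 6 IRG genes and 5 related lists, with all 3 depleted mice (black) and with A4 left out (blue), and bars at the medians. The medians of the IRG and GBP genes are 1.06 and 1.14 with A4 and 0.62 and 0.57 without it, and that of the conjugation and vacuole genes is 0.061 with A4.

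Across the 6 mice, the genes whose profiles were nearest to the mean profile of the IRG genes were Irf9, C4b, Gfap, Parp9, Ccl4, Trim30d, Gbp2 and Gbp5. Nearness was the root mean square difference of log2(FPKM + 1) after each profile was centred on its control mean, and it ran from 0.064 for Irf9 to 0.176 for Gbp5. Irf9, the DNA-binding subunit of the complex at the ISRE, was 5.56, 4.56 and 4.90 FPKM in control mice A1 to A3 and 24.9, 7.17 and 7.88 FPKM in depleted mice A4 to A6. For single genes other than Igtp, the nearest profile was C4b for Irgm1 (0.046), Trim30d for Irgm2 (0.070), Trim17 for Iigp1 (0.105), B2m for Tgtp1 (0.076) and Samd9l for Gm4951 (0.093). These values describe 6 mice of which A4 sets most of the range.

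**Figure D5:**
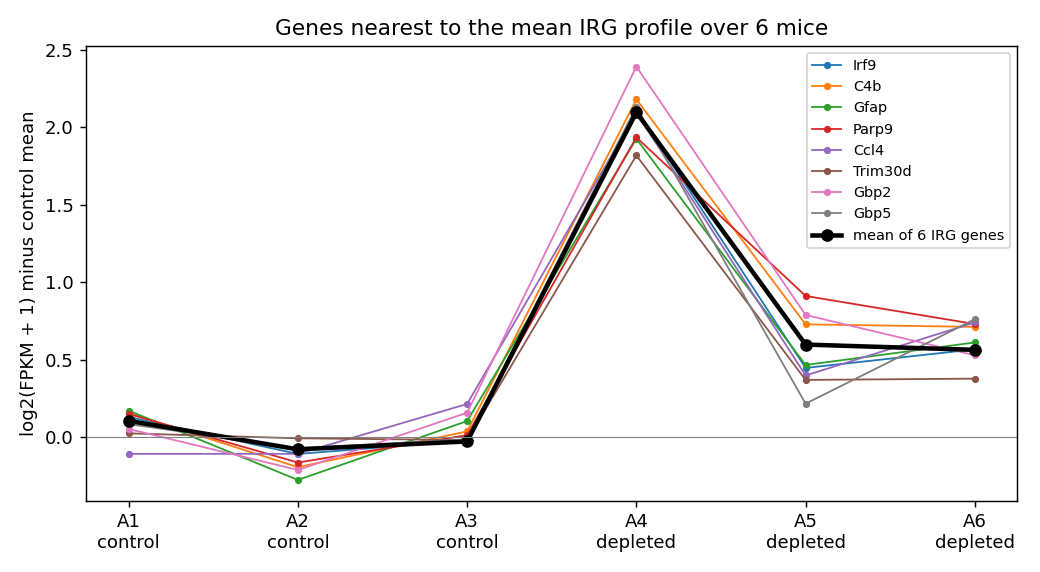
Log2(FPKM + 1) minus the control mean in each mouse for the mean of the 6 IRG genes (thick black) and the 8 genes nearest to it. All profiles peak in A4, and the IRG mean and Irf9 differ by 0.064 (root mean square over the 6 mice).

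Marker genes of the cells that could carry IRG transcripts were read beside them. The 11 microglia markers, all tested, summed to 112 to 135 FPKM in control and 116 to 148 FPKM in depleted mice, ranges that overlap, with Aif1 highest at 0.74 and Fcrls lowest at -0.90 on the log2 scale. The sum of 7 monocyte and border macrophage markers was 3.88 to 4.53 FPKM in control mice, 3.26 in A5, 3.78 in A6 and 7.81 FPKM in A4, so its highest value was in A4. Of the 7, 4 were above all controls in A4, 0 in A5 and 2 in A6. Plac8 (2.28 FPKM in A4, at most 0.49 in the controls) and Ly6c2 (1.73 FPKM in A4, 0.88 in A6, at most 0.46 in the controls) carried the sum in A4, while Ccr2, Cd163 and F13a1 were not above the controls there. The 13 T and NK cell markers summed to 3.54 to 5.0 FPKM in control and 2.76 to 5.28 FPKM in depleted mice. Among them Ncr1 and Gzmb were at 0 in all 6 mice, and 4 of the 13 were above all controls in A4, 2 in A5 and 3 in A6. The share of all genes above all controls in a single mouse was not counted. These counts and those of the monocyte and border macrophage markers therefore have no background, and no change is read from them. The 4 T and NK cell markers above all controls in A4 were Cd3d, Cd3g, Lck and Cd8b1. Cd3d was 1.08 FPKM in A4 and at most 0.13 FPKM in the others, and Cd3g was 0.42 and at most 0.05 FPKM. Lck was 1.25 FPKM in A4 and at most 1.13 FPKM in the controls, and Cd8b1 was 0.20 and at most 0.17 FPKM. In A4 Cd3e was at 0, and Cd4 and Cd8a were below all controls.

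Of 6 astrocyte markers, Gfap alone was higher, at 88.3, 64.5 and 84.2 FPKM in control mice A1 to A3 and 300.3, 109 and 120.1 FPKM in depleted mice A4 to A6. The other 5 astrocyte markers had negative log2 fold changes, and the sum of all 6 overlapped between the groups (563 to 631 FPKM in control, 587 to 736 FPKM in depleted mice). Neuron markers also overlapped, at 1892 to 2213 and 1925 to 2087 FPKM, and oligodendrocyte markers were lower in the depleted mice, at 2453 to 2521 against 2801 to 3042 FPKM, so both of these defining cell types of the labelled tissue were read in all 6. The 6 endothelial markers summed to 13.8 to 16.1 FPKM in control and 16.8 to 19.0 FPKM in depleted mice. They did not move together: 3 had a positive and 3 a negative log2 fold change, from Pecam1 at 0.34 to Tie1 at -0.13, with a median of 0.011. Cldn5, the highest of them in level, had a mean of 6.68 FPKM in control and 8.56 FPKM in depleted mice. The 3 choroid plexus markers summed to 163 to 318 FPKM in control and 41.8 to 65.7 FPKM in depleted mice, with Ttr at -1.91 on the log2 scale. The part of these cell types in the IRG values was not tested.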

How the data were processed

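Cortical RNA of 3 control and 3 depleted mice was compared, with groups taken from the sample labels. The study used poly(A) selection and 75 bp paired-end reads. The authors deposited FPKM per gene symbol, after TMM scaling between the libraries, given to 2 decimals. The submitters' processing notes name TopHat, RSEM, DESeq and the build mm9, with versions not given in the sources used here. Raw counts were not used here, and strandedness was not stated, so reads of antisense genes cannot be told apart.

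From these values, log2(FPKM + 1) was fitted with limma 3.58.1 in R 4.3.3 (lmFit, eBayes with trend) over 14385 genes (mean over the mice of 0.5 FPKM or more), without covariates, with Benjamini-Hochberg adjustment over all of them and a threshold of 0.1. The fit was tested on simulated data. Fits without A4 kept the same genes. For single values an exact permutation test (two-sided) was used. The members and lists were chosen with earlier results of these data known. The text names, beside the members, the highest and lowest tested gene of each pathway list (with 1 exception) and the 8 genes nearest in profile. The nearest gene to each single member is named too. Stat2, Ifngr1, Atg3, Tgtp2, F830016B08Rik, Gm12250, Gm12185, Ifng, Ifnb1 and most markers were named outside that rule, after their values were seen. An item withheld from the text is not reported here.

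Depth was estimated from 1813 single-transcript genes, on the assumption that their low FPKM values are whole multiples of 1 fragment. Full transcript lengths and TMM-scaled values were used, so the estimates also carry the scaling. They were not checked against read counts. Precision is limited most in A5, the shallowest library. Positions, transcripts and the GTP-binding class (from the longest reading frame) were taken from GENCODE M21 on GRCm38 by symbol, and promoters from RefSeq GRCm38.p6. The 6 members were searched for by symbol, and 4 had an entry among the promoter windows used. Windows on chromosome 18, where Iigp1 and Gm4951 lie, were not used. Reads could be split between genes that share 75-base windows. Other steps ran in Python 3.11.15 with pandas 2.3.3 and numpy 2.4.6, and figures were drawn with matplotlib 3.10.9. As alternatives, the pseudocount was set to 0.1, the filter was dropped or raised to 1 FPKM, and 3 other scalings, 3 other variance or weight settings, a threshold of 0.05 and fits without each mouse were tried.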

Additional observations from a re-analysis of the deposited data

How the results depend on the processing

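All 88 values of the 6 IRG genes under the alternatives were positive, from 0.26 to 2.65 on the log2 scale, and 0 passed the adjusted threshold (adjusted p 0.124 to 0.892 in limma). The sign was fixed in advance except under the 3 other scalings, because every depleted mouse lay above every control mouse for each gene. The filter and variance settings, array weights apart, leave the log2 fold change itself unchanged. The number of IRG genes with an unadjusted p under 0.05 was 5. It was 3 with a minimum mean of 1 FPKM, a filter that removes Tgtp1 and Gm4951, and 3 to 6 with 1 mouse left out, with 3 reached without A2 and without A3. The count over all 14385 genes moved as well. At that threshold 689 genes were higher with all mice, 375 without A2, 441 without A3 and 994 without A5. The number of genes called among all tested was 4. It was 2 without the variance trend, 20 with array weights, and 2 to 29 with 1 mouse left out (2 without A1, 8 without A6 and 29 without A5). Rescaling moved the median of all genes by less than 0.01. The GKS minus GMS difference between groups was -0.053 on the log2(FPKM + 1) scale, from -0.11 to -0.016 with 1 mouse left out, and 0.91 with a pseudocount of 0.1 (0.72 with Gm4951 also left out), alternatives added after the data were seen. The alternative pseudocount gives more weight to low genes by construction. The causes of the other shifts were not tested. No paired analysis was possible because the groups share no replicate numbers. Depth limits the lowest genes most, above all Gm4951 in control mice.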
